A study of Homo sapiens with 18 samples.

Results

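The enzymes of heme synthesis carry glycine and succinyl-CoA to heme in a chain of steps that starts in the mitochondrion, passes through the cytosol and ends in the mitochondrion again. The 7 enzymes described here, ALAS1, ALAD, UROS, UROD, CPOX, PPOX and FECH, were found by their gene symbols in the table of counts, and all 7 were among its 58870 genes. ALAS2, the form of the first enzyme made in red cell precursors, is given beside them. ALAS1 is the rate-limiting enzyme in most cells and is a textbook target of NRF1, a transcription factor that binds a GC-rich palindrome in promoters and is best known for activating nuclear genes of mitochondria. Heme is the cofactor of cytochromes and of several cytosolic and peroxisomal enzymes, and heme itself represses ALAS1.

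RNA-Seq was carried out on HEK293 Flp-In cells. They derive from human embryonic kidney and hold a genomic site for inserting transgenes. The 18 libraries were 3 for each of 6 conditions. NRF1 was depleted by siRNA (siNRF1) or a control siRNA that targets no gene was used (siNT), and the cells carried no transgene, full-length NRF1 (NRF1-FL) or NRF1 lacking exon-7 (NRF1-ΔE7). All 6 conditions were labelled as siRNA plus doxycycline, the inducer of the transgenes. The labels put doxycycline at 24 h after transfection and the methods at 6 h. The methods give a dose of 0.1 ng/mL and harvest 48 h after induction. The transgenes were FLAG-tagged and resistant to the siRNA, and each isoform came from its own line of stably selected colonies, so isoform and line cannot be told apart. The origin of the cells that had no transgene, parental or otherwise, is not stated in the labels or methods. The labels do not say that the 3 libraries of a condition came from separate cultures, and the p-values therefore reflect library-to-library spread that may be technical.

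Library totals ran from 31.2 to 44.8 M counts with a median of 38.3 M. Levels are CPM (counts scaled to library size, with TMM factors), given for the 3 libraries in the order of their replicate numbers and as mean ± SD. A gene was called when its adjusted p was under 0.05 and its log2 fold-change was above 0.5 in size, which is 1.41-fold. Without a transgene, NRF1 was at 31.1, 29.9 and 29.3 CPM under siNT and at 7.19, 9.25 and 7.7 CPM under siNRF1. Its log2 fold-change was -1.92 ± 0.0603 (SE, adjusted p = 2.9e-23, edgeR quasi-likelihood F test). With a transgene NRF1 was at 54.4 CPM under siNT and 49.6 CPM under siNRF1 for NRF1-FL (log2 fold-change -0.13), and at 58.5 and 38.3 CPM for NRF1-ΔE7 (-0.61). All 4 means were above the siNT level without a transgene, 30.1 CPM, and the counts do not separate transgene from endogenous reads.

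Of genes typical of HEK293 cells, VIM was at 1310 to 1710 CPM and NEFL at 158 to 244 CPM. Of the 7 markers on that list 3 were called higher with siNRF1 without a transgene and 0 lower, namely PAX2 (0.84), LHX1 (0.73) and GATA3 (0.64). Over all tested genes 13.7% were called higher and 15.1% lower in that comparison. The list summed to 1770 to 1820 CPM under siNT and 1850 to 1910 CPM under siNRF1. Of 12 erythroid markers, HBB, HBG1, GATA1 and ALAS2 were at 0 in all 18 libraries. The erythroid list summed to 22.7 to 25.4 CPM under siNRF1 and 12.8 to 15.6 CPM under siNT without a transgene, and most of it was HBA1 (6.44 to 19.6 CPM over all libraries), with EPOR at 4.17 to 5.82 CPM and HBA2 at 0.874 to 8.04 CPM. Hepatocyte markers summed to at most 0.712 CPM, leukocyte markers to at most 0.858 CPM and fibroblast markers to 10.3 to 14.4 CPM, mostly COL1A1. In bulk RNA, fewer cells of a type and less RNA per cell cannot be told apart. The part of these lists in the results on the enzymes was not tested.

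The promoters of ALAS1 and CPOX are shown because, of the 7, ALAS1 had a siRNA response that differed between the NRF1-FL and NRF1-ΔE7 cells and CPOX had the largest fall. Each runs from 250 bases before to 50 bases after the RefSeq start in GRCh38.p14, 5′ to 3′ on the strand of the gene. Capitals mark matches to the 9-letter motif GCGCANGCG, the core of the NRF1 palindrome, searched on both strands (reverse complement CGCNTGCGC).
ALAS1, chr3:52197833-52198132, plus strand: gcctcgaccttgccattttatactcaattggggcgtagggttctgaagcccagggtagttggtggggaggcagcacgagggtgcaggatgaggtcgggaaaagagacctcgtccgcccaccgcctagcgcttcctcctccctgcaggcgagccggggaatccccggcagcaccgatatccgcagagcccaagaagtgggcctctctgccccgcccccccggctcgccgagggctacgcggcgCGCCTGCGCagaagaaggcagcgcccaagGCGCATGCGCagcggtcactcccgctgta
CPOX, chr3:98593562-98593861, minus strand: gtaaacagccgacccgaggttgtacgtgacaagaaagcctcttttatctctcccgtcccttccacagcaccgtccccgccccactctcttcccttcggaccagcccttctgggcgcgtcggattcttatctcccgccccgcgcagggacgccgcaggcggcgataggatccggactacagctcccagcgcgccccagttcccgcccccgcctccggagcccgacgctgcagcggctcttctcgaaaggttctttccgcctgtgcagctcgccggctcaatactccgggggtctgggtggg
In ALAS1 the motif matched 3 times, with starts at -8, 22 and 23 from the gene start. The last 2 matches overlap on opposite strands and form a single palindrome. The CPOX window held 0 matches. Of the 7 enzymes, 6 had a promoter in the RefSeq table, and the windows of ALAD, UROD, PPOX and FECH also held 0. The UROD window (chr1:45012004-45012303) and the PPOX windows (the first chr1:161166176-161166475) lie downstream of the gene starts given below (45010950 and 161166056). Those starts were not searched. The motif was found in 7.52% of the 35116 promoters of the table and in the promoters of 16.0% of 11741 tested genes. The share was 38.0% of 479 genes called lower in NRF1-ΔE7 cells than in NRF1-FL cells under siNRF1 and 9.13% of 208 genes called higher, which are descriptions with no test. A match is no evidence of binding, and no match says only that these letters are absent from this window.

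Under siNT without a transgene the enzymes covered a wide range when levels were divided by the length of the canonical transcript. UROD was highest at 74.1 ± 2.94 CPM per kb (SD, n = 3). UROS followed at 32.5 CPM per kb. CPOX at 15.3 ± 0.786 and ALAS1 at 14.9 ± 0.266 CPM per kb overlapped, as did FECH at 8.75 ± 0.128 and PPOX at 8.19 ± 0.649. ALAD was lowest at 5.01 ± 0.169 CPM per kb. ALAS2 had 0 counts in every library. Counts of the 7 enzymes ran from 294 for PPOX in its lowest library to 4120 for UROD in its highest, and all 7 passed the filter on low counts.

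**Figure D1:**
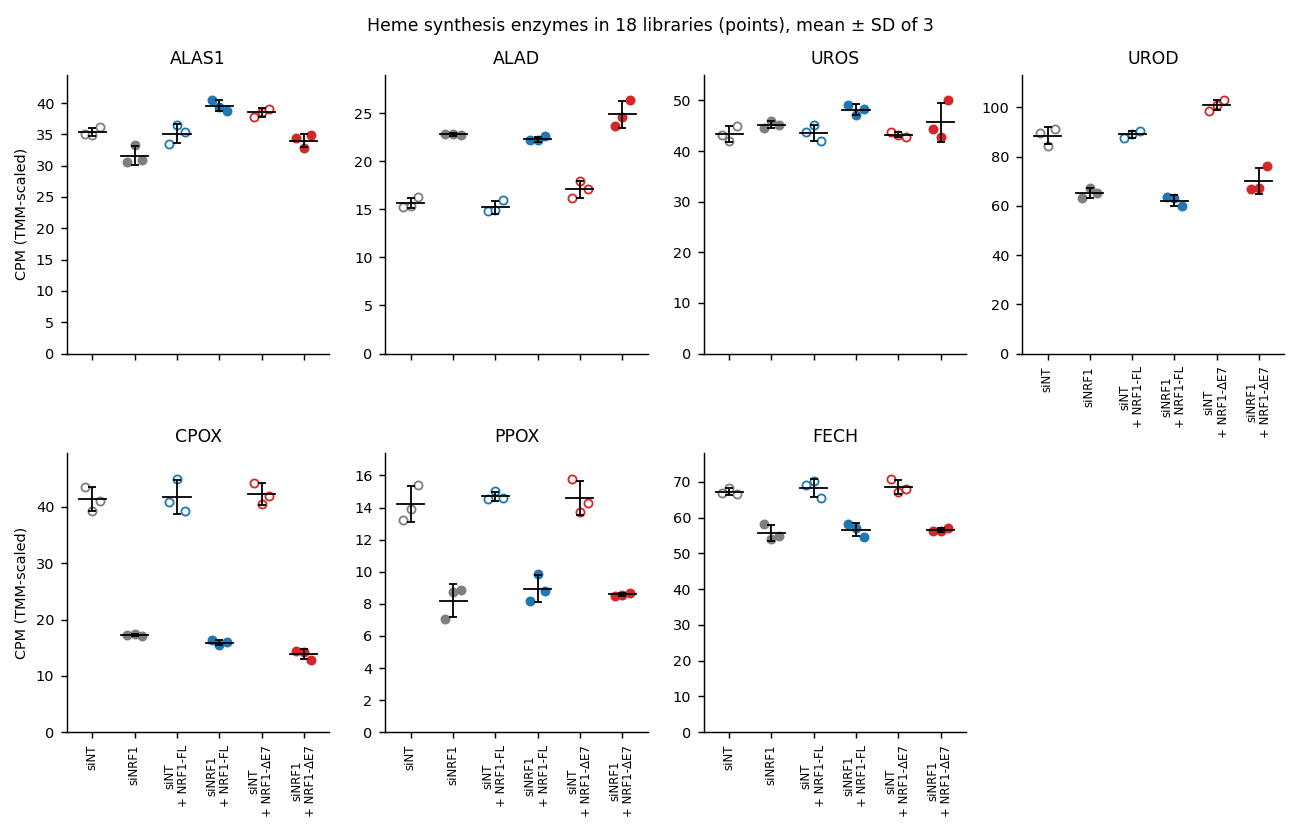
TMM-scaled CPM (vertical axes, from 0) of the 7 enzymes in the 6 conditions (horizontal axis). Points are libraries, open for siNT and filled for siNRF1, in grey for no transgene, blue for NRF1-FL and red for NRF1-ΔE7. Horizontal bars are means and vertical bars SD of 3. CPOX and PPOX are low in every siNRF1 library, ALAD is high in every siNRF1 library, and ALAS1 stays between 30.6 and 40.5 CPM throughout.

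The first question was how the enzymes differed between siNRF1 and siNT. The methods give a single siRNA, picked from those screened, for these experiments. Effects of this siRNA apart from loss of NRF1 were not tested. Without a transgene, CPOX and PPOX fell and ALAD rose past both thresholds. UROD, FECH and ALAS1 were lower by smaller amounts at an adjusted p under 0.05. UROS did not pass the test. Thus 2 of 7 enzymes were called lower, where 15.1% of all 17962 tested genes were, and 1 of 7 was called higher, where 13.7% were. At an adjusted p under 0.05 alone, 6 of 7 enzymes passed, beside 64.3% of all tested genes. The median log2 fold-change of the 7 was -0.27, and that of all tested genes was 0.008. Of all genes called here 52.6% were lower, a share of 42.2% with upper-quartile scaling in place of TMM.

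The responses were of like size for most enzymes when a transgene was present. In the NRF1-FL line 3 of 7 were called lower (14.0% of tested genes), 1 of 7 higher (13.1%) and 7 of 7 passed on adjusted p (63.4%). In the NRF1-ΔE7 line 3 of 7 were called lower (16.8%), 1 of 7 higher (16.0%) and 6 of 7 passed on adjusted p (68.0%). These comparisons share no libraries with each other. The additional enzyme called lower in both lines was UROD, whose fold-change lay near the threshold.

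ALAS1 (ENSG00000023330.15, hg38 chr3:52198086-52214327, plus strand) condenses glycine with succinyl-CoA to 5-aminolevulinate. Without a transgene it was at 35.1, 34.9 and 36.1 CPM under siNT and at 30.6, 33.3 and 30.9 CPM under siNRF1. The groups did not overlap, and the fall was small, with a log2 fold-change of -0.17 ± 0.0444 (SE) and an adjusted p of 0.00152. In the NRF1-FL line the direction was the opposite. ALAS1 was at 33.4, 36.5 and 35.3 CPM under siNT and at 40.5, 39.3 and 38.8 CPM under siNRF1, a log2 fold-change of 0.17 ± 0.0431 (adjusted p = 8.3e-04). With NRF1-ΔE7, ALAS1 was at 37.7, 38.6 and 39.1 CPM under siNT and at 34.4, 32.8 and 34.9 CPM under siNRF1, a log2 fold-change of -0.18 ± 0.0429 (adjusted p = 5.3e-04). The fall with NRF1-ΔE7 thus matched that without a transgene in size. With upper-quartile scaling both falls shrank to -0.08 and lost significance (adjusted p = 0.118 and 0.103), and the rise in the NRF1-FL line grew to 0.26 (adjusted p = 5.5e-06).

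Ordered by level, ALAS1 was lowest in siNRF1 cells without a transgene at 31.6 CPM. It was next at 34.0 in siNRF1 with NRF1-ΔE7, 35.1 in siNT with NRF1-FL and 35.4 in siNT without a transgene. Neighbours among these 4 conditions overlapped. The 2 highest conditions, siNT with NRF1-ΔE7 at 38.5 CPM and siNRF1 with NRF1-FL at 39.6 CPM, overlapped each other and lay above all libraries of the other 4.

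ALAD (ENSG00000148218.16, chr9:113386312-113401290, minus strand) joins pairs of 5-aminolevulinate to porphobilinogen in the cytosol. It was the enzyme that rose. In cells with no transgene ALAD was at 15.3, 15.4 and 16.3 CPM under siNT and at 22.9, 22.8 and 22.7 CPM under siNRF1. All siNRF1 libraries were above all siNT libraries, and the log2 fold-change was 0.54 ± 0.055 (adjusted p = 2.7e-10). The log2 fold-change was 0.55 ± 0.0548 in the NRF1-FL line, where levels went from 15.2 to 22.3 CPM. It was 0.54 ± 0.0531 in the NRF1-ΔE7 line, where they went from 17.1 to 24.9 CPM. The latter value fell to 0.49, just under the threshold, when the siNRF1 with NRF1-ΔE7 library of replicate 3 was left out.

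UROS (ENSG00000188690.14, chr10:125784980-125823258, minus strand) closes a linear tetrapyrrole into a ring. With TMM scaling its changes were the smallest of the 7 in each of the 3 comparisons. UROS levels without a transgene were 43.2, 41.9 and 45.0 CPM under siNT and 44.5, 45.9 and 45.2 CPM under siNRF1, and the groups overlapped. The log2 fold-change was 0.06 with a 95% interval from -0.04 to 0.15 (adjusted p = 0.277). In the NRF1-FL line it was 0.14 ± 0.0455 (adjusted p = 0.00636), and in the NRF1-ΔE7 line 0.08 ± 0.0453 (adjusted p = 0.101). With upper-quartile scaling the values were 0.14, 0.23 and 0.18 and all passed on adjusted p, and they were no longer the smallest, since ALAS1 was at -0.08 without a transgene and with NRF1-ΔE7 and FECH at -0.18 with NRF1-FL.

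UROD (ENSG00000126088.14, chr1:45010950-45015575, plus strand) removes carboxyl groups from the ring in the last cytosolic step. In cells without a transgene, UROD was at 89.6, 84.4 and 91.1 CPM under siNT and at 63.0, 67.3 and 65.3 CPM under siNRF1, with no overlap. The log2 fold-change was -0.44 ± 0.0422 there and -0.52 with either isoform (SE 0.0422 for NRF1-FL, 0.0411 for NRF1-ΔE7). The call in the NRF1-FL line was lost with upper-quartile scaling (-0.44) and without the siNRF1 with NRF1-FL library of replicate 3 (-0.50). The call in the NRF1-ΔE7 line was lost with the same scaling (-0.42) and without the siNRF1 with NRF1-ΔE7 library of replicate 1 (-0.49).

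CPOX (ENSG00000080819.8, chr3:98579446-98593648, minus strand) oxidizes coproporphyrinogen in the mitochondrial intermembrane space and showed the largest change of the 7 in each of the 3 comparisons. With no transgene CPOX was at 43.6, 39.3 and 41.1 CPM under siNT and at 17.2, 17.4 and 17.1 CPM under siNRF1. In NRF1-FL cells CPOX was at 40.8, 45.0 and 39.2 CPM under siNT and at 16.3, 15.4 and 16.1 CPM under siNRF1. In NRF1-ΔE7 cells CPOX was at 44.3, 40.5 and 42.0 CPM under siNT and at 14.5, 14.3 and 12.8 CPM under siNRF1. The siNT groups overlapped across all lines, while the siNRF1 groups stepped down from no transgene to NRF1-FL to NRF1-ΔE7 with no overlap. The step from no transgene to NRF1-FL did not pass (-0.11, adjusted p = 0.202). The step from NRF1-FL to NRF1-ΔE7 passed (adjusted p = 0.013), but not in every fit with a library left out. Levels fell by 58.4% without a transgene (log2 fold-change -1.27 ± 0.0559, adjusted p = 2.6e-19). They fell by 61.8% in the NRF1-FL line (-1.39 ± 0.0564, adjusted p = 3.0e-20). They fell by 67.2% in the NRF1-ΔE7 line (-1.61 ± 0.0564, adjusted p = 3.7e-22).

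PPOX (ENSG00000143224.18, chr1:161166056-161178013, plus strand) makes protoporphyrin at the inner mitochondrial membrane. PPOX without a transgene was at 13.2, 13.9 and 15.4 CPM under siNT and at 7.03, 8.71 and 8.86 CPM under siNRF1, with no overlap. The log2 fold-change was -0.79 ± 0.082 (adjusted p = 3.6e-10), and it was -0.71 ± 0.0803 for NRF1-FL and -0.76 ± 0.0797 for NRF1-ΔE7. Levels in the 3 siNRF1 conditions, 8.2, 8.95 and 8.59 CPM, overlapped, as did those in the 3 siNT conditions.

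FECH (ENSG00000066926.11, chr18:57544377-57586732, minus strand) inserts iron into protoporphyrin to give heme. FECH without a transgene was at 66.9, 68.4 and 66.5 CPM under siNT and at 58.1, 54.1 and 54.9 CPM under siNRF1. Every siNRF1 library was below every siNT library. The log2 fold-change was -0.27 ± 0.0374 (adjusted p = 1.4e-07). It was -0.27 ± 0.0371 for NRF1-FL and -0.28 ± 0.0367 for NRF1-ΔE7, a spread of 0.01 over the 3. FECH stayed under the fold threshold in each.

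**Figure D2:**
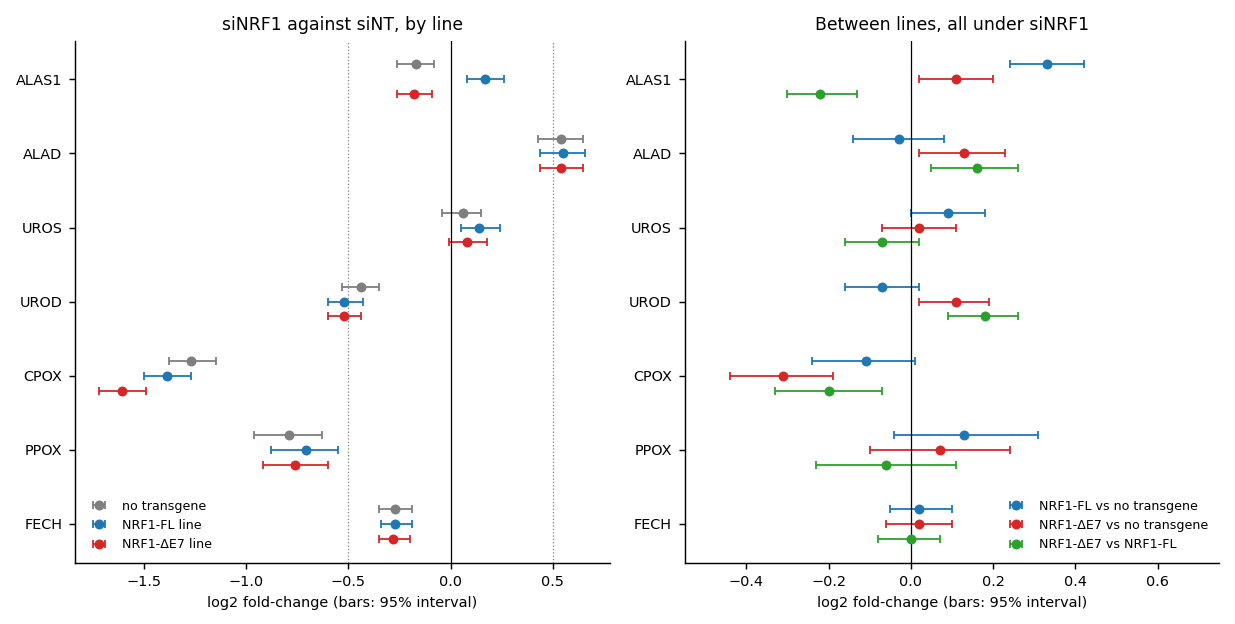
Left, log2 fold-change of siNRF1 against siNT (horizontal axis) for each enzyme (rows), grey for no transgene, blue for NRF1-FL and red for NRF1-ΔE7, with dotted lines at the 0.5 threshold. Right, log2 differences between lines under siNRF1. Bars are 95% intervals. ALAS1 has its point on the other side of 0 in the NRF1-FL line, at 0.17 against -0.17 and -0.18, and the widest gap between points for CPOX is from -1.27 to -1.61.

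The next question was whether exon-7 mattered for these enzymes, asked by comparing NRF1-ΔE7 with NRF1-FL cells under siNRF1. No enzyme was called by edgeR or by DESeq2, where 6.17% of all tested genes were called by edgeR. At an adjusted p under 0.05, and likewise unadjusted, 4 of 7 differed, beside 31.8% of tested genes on adjusted p. The share of tested genes at an unadjusted p was not computed, so the unadjusted counts here and below have no background beside them. ALAS1 and CPOX were lower with NRF1-ΔE7, and UROD and ALAD were higher. ALAS1 had the largest difference and the smallest adjusted p, with 40.5, 39.3 and 38.8 CPM in NRF1-FL cells and 34.4, 32.8 and 34.9 CPM in NRF1-ΔE7 cells. It was thus lower by 13.9% (log2 fold-change -0.22 ± 0.0426, adjusted p = 1.6e-04), with no overlap. NRF1 itself was 0.37 lower on the log2 scale in NRF1-ΔE7 than in NRF1-FL cells under siNRF1 (log2 fold-change -0.37 ± 0.0449), and the part of this in the ALAS1 difference was not tested.

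The other differences in that comparison were -0.20 ± 0.0623 for CPOX (adjusted p = 0.013), 0.18 ± 0.0424 for UROD (adjusted p = 0.00158) and 0.16 ± 0.0512 for ALAD (adjusted p = 0.0175). CPOX lost significance without the NRF1-FL library of replicate 1 (adjusted p = 0.059) or the NRF1-ΔE7 library of replicate 3 (-0.14, adjusted p = 0.132). ALAD lost it without the NRF1-FL library of replicate 2 (adjusted p = 0.0508) or the same NRF1-ΔE7 library (0.12, adjusted p = 0.12). UROS (-0.07, interval -0.16 to 0.02), PPOX (-0.06, interval -0.23 to 0.11) and FECH (interval -0.08 to 0.07) did not pass. UROS passed (-0.14, adjusted p = 0.0119) when the NRF1-ΔE7 library of replicate 3 was left out.

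Under siNT, where endogenous NRF1 was present, no enzyme was called between the isoforms by edgeR or DESeq2 (2.28% of tested genes were by edgeR). On adjusted p 3 of 7 passed with edgeR (15.9% of tested genes) and 2 with DESeq2, and 3 of 7 had an unadjusted p under 0.05 with each. ALAS1 was higher with NRF1-ΔE7, the opposite direction from that under siNRF1, by 0.13 ± 0.0435 (adjusted p = 0.0345). This was lost without the filter on low counts (adjusted p = 0.0723) and without NRF1-FL replicate 1 or 3 (0.19 and 0.0654) or NRF1-ΔE7 replicate 2 or 3 (0.0904 and 0.119). UROD was higher by the same 0.18 as under siNRF1 (SE 0.0408, adjusted p = 0.00211). ALAD was higher by 0.16 ± 0.0568 (adjusted p = 0.0464), and this was lost under 11 of the alternatives, with DESeq2 among them.

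Adding an isoform back under siNRF1 was then compared with siNRF1 cells without a transgene. With NRF1-FL, ALAS1 was higher by 25.5% (log2 fold-change 0.33 ± 0.0435, adjusted p = 5.5e-07). It was the single enzyme of 7 to pass on adjusted p (22.6% of tested genes did), and none was called by edgeR (4.89%) or by DESeq2. At an unadjusted p under 0.05, 2 of 7 passed with edgeR. With NRF1-ΔE7, ALAS1 was higher by 0.11 ± 0.0435, with overlapping groups and an adjusted p of 0.0665. The enzyme that passed with NRF1-ΔE7 was CPOX, which was lower still by 0.31 on the log2 scale (log2 fold-change -0.31 ± 0.0614, adjusted p = 2.7e-04). That was 1 of 7 enzymes beside 21.6% of tested genes, and none was called by edgeR (2.38%) or by DESeq2. At an unadjusted p under 0.05, 4 of 7 passed, with no share of all tested genes to set beside it. Without the NRF1-ΔE7 library of replicate 1, UROD (0.14, adjusted p = 0.0292) and ALAD (0.16, adjusted p = 0.0427) passed as well. UROD also passed without the NRF1-ΔE7 library of replicate 2 (0.0474) or the filter on low counts (0.0287), and ALAS1 passed with upper-quartile scaling (0.0469) or without replicate 2 of siNRF1 without a transgene (0.0312). CPOX with NRF1-FL differed from no transgene by -0.11 (interval -0.24 to 0.01). For PPOX the differences were 0.13 (interval -0.04 to 0.31) with NRF1-FL and 0.07 (interval -0.10 to 0.24) with NRF1-ΔE7. NRF1 was higher by 2.64 with NRF1-FL and by 2.26 with NRF1-ΔE7 on the same log2 scale.

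With siNT, the NRF1-FL line differed from cells without a transgene in none of the enzymes on either rule, with edgeR or DESeq2 (1.28% of tested genes were called by edgeR and 8.28% passed on adjusted p). At an unadjusted p under 0.05, 0 of 7 passed with either tool. The NRF1-ΔE7 line differed on adjusted p in UROD, which was higher by 0.19 ± 0.0411 (adjusted p = 0.0013). That was 1 of 7 beside 16.4% of tested genes, and none was called by edgeR (2.28%) or by DESeq2. At an unadjusted p under 0.05, 3 of 7 passed with edgeR. ALAS1 was higher by 0.12 at an adjusted p of 0.0539, and it passed under 7 of the alternatives, at 0.0335 to 0.0488, RLE scaling among them. These comparisons share libraries with those above.

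The difference between siRNA responses was tested directly as an interaction. For ALAS1 the response in the NRF1-ΔE7 line was lower than in the NRF1-FL line by 0.35 on the log2 scale (-0.35 ± 0.0609, adjusted p = 1.2e-04). This combines a difference between the lines of -0.22 under siNRF1 with one of 0.13 under siNT, which was lost under some alternatives. ALAS1 was the single enzyme of 7 to pass, beside 7.40% of tested genes. The response of ALAS1 in the NRF1-FL line exceeded that without a transgene by 0.34 ± 0.0619 (adjusted p = 3.1e-04), again 1 of 7, beside 5.53%. The ALAS1 responses in the NRF1-ΔE7 line and without a transgene differed by -0.01, with an interval from -0.14 to 0.12. In that last comparison CPOX passed, with a fall that was larger in the NRF1-ΔE7 line by 0.34 (-0.34 ± 0.08, adjusted p = 0.0137), 1 of 7 beside 2.33%. The CPOX value lost significance without the siNT library of replicate 1 (-0.31, adjusted p = 0.0554) or the siNRF1 library of replicate 3 (-0.29, adjusted p = 0.0605) of the NRF1-ΔE7 line. The CPOX responses in the NRF1-ΔE7 and NRF1-FL lines differed by -0.22 ± 0.0805 (adjusted p = 0.0972), which passed without the siNT library of replicate 2 of the NRF1-FL line (-0.28, adjusted p = 0.0281). The enzymes other than ALAS1 and CPOX differed by at most 0.09 in size in these interactions.

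**Figure D3:**
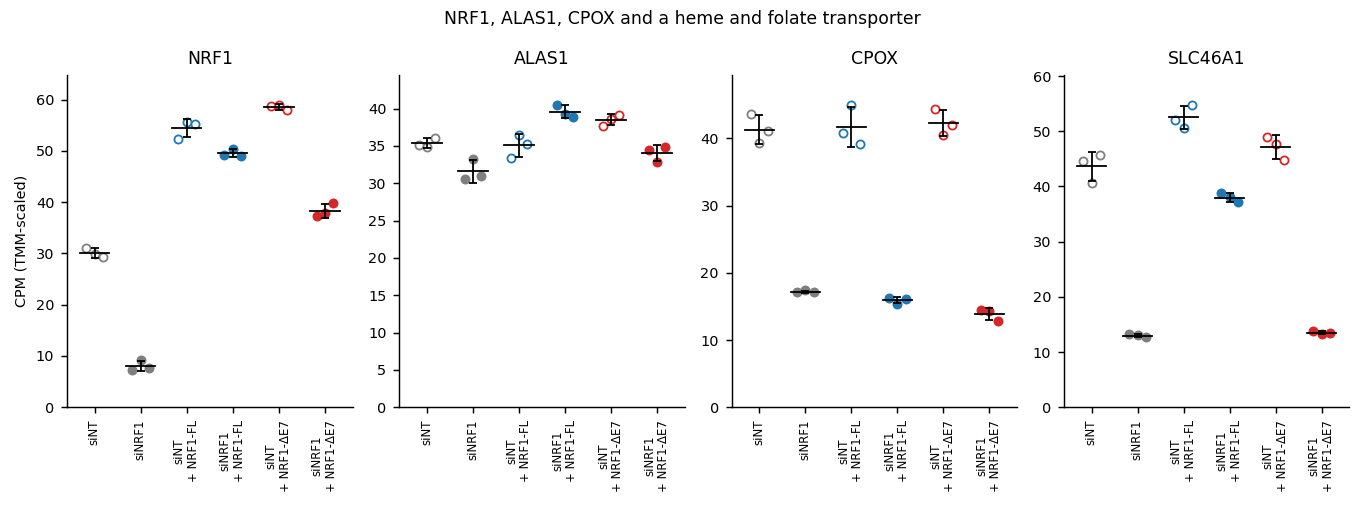
TMM-scaled CPM (vertical axes, from 0) of NRF1, ALAS1, CPOX and the transporter SLC46A1 in the 6 conditions, with symbols as in the plot of enzymes by condition. SLC46A1 is at 13.0 CPM under siNRF1 alone, 38.0 CPM with NRF1-FL and 13.5 CPM with NRF1-ΔE7, ALAS1 is highest with NRF1-FL under siNRF1, and CPOX is low in all 9 siNRF1 libraries.

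Genes that lie beside the enzymes were checked because it is not stated whether the counting used strand. PPOX overlaps B4GALT3 on the opposite strand over 6659 bases, exons included, and B4GALT3 changed by -0.16 with siNRF1 without a transgene against -0.79 for PPOX. UROD overlaps HECTD3 over 375 bases, and HECTD3 changed by -0.26 against -0.44. CPOX shares exons with ENSG00000285635 on the same strand, which was listed at 0 CPM under siNT and siNRF1. UROS has its start 288 bases from that of BCCIP on the opposite strand, and BCCIP changed by -0.27 (adjusted p = 2.7e-10) where UROS did not pass. MIR4484 within UROS was at 0 CPM. The counts of PPOX and UROD are therefore uncertain to the extent that reads of the partner were counted with them. ALAS1, ALAD and FECH had no annotated gene overlapping them or starting within 1000 bases.

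The genes most alike to each enzyme were found by Pearson correlation of log2 CPM over the 18 libraries, among 11762 genes with a mean of at least 5 CPM. The libraries share 6 conditions, so r is a description. ALAS1 was closest to MEPCE (r = 0.921), DENND5A (0.917) and PIM2 (0.903), each with a negative log2 fold-change for siNRF1 without a transgene and a positive one in the NRF1-FL line. For MEPCE the values were -0.12 and 0.12. CPOX was closest to MDFIC, PICALM and ACLY (r = 0.997 each), with log2 fold-changes of -1.63, -1.04 and -1.17 without a transgene. ALAD was closest to CDC42 (0.984), RAB39B (0.983) and ADI1 (0.983), and PPOX to RAB1A (0.981), SSBP4 (0.978) and MMS19 (0.978). FECH was closest to LGALS8 (0.984), KIAA0391 (0.981) and SESTD1 (0.980), and UROD to RPL8 (0.991), CD63 (0.990) and TUBA1C (0.988). UROS had the weakest partners, RPP38 (0.826), RTL5 (0.822) and RASSF1 (0.821).

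The wider heme and iron genes were taken as 9 lists of 77 genes, of which 76 were tested. Of 17 genes for the transport of porphyrins, glycine and heme, 5 were called lower and 1 higher with siNRF1 without a transgene. Over all tested genes 15.1% were called lower and 13.7% higher in that comparison, and 64.3% passed on adjusted p. TMEM14C, which moves protoporphyrinogen into the matrix, changed by -1.57, the porphyrin transporter ABCB6 by -1.46 and the heme exporter FLVCR1 by -1.29. FLVCR2, a relative of FLVCR1, changed by 0.98 ± 0.202 at a low level, 0.892 CPM under siNT and 1.77 CPM under siNRF1. SLC46A1, a transporter of heme and folate, changed most. It was at 44.6, 40.7 and 45.7 CPM under siNT and at 13.2, 13.1 and 12.7 CPM under siNRF1, a log2 fold-change of -1.75 ± 0.0518 (adjusted p = 5.6e-24). Its RefSeq promoter held 1 match to the motif, and those of TMEM14C, ABCB6, FLVCR1 and FLVCR2 held 0. Of 62 tested genes of the 9 lists with a promoter in the table, 13 held a match (21.0%).

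SLC46A1 was also the gene of that list called between the isoforms under siNRF1. It was at 38.8, 38.1 and 37.2 CPM with NRF1-FL and at 13.8, 13.3 and 13.4 CPM with NRF1-ΔE7, a log2 fold-change of -1.50 ± 0.0508 (adjusted p = 4.5e-21). With NRF1-ΔE7 it thus stood near the level without a transgene. TMEM14C differed in the same direction by a smaller amount, at 29.4 CPM with NRF1-FL and 21.6 CPM with NRF1-ΔE7 (-0.44 ± 0.047, adjusted p = 4.9e-09). Like ALAS1, both had a more negative siRNA response in the NRF1-ΔE7 than in the NRF1-FL line, by -1.34 (adjusted p = 4.9e-16) and -0.31 (adjusted p = 8.0e-04). So did NFU1, of iron-sulfur cluster assembly, by -0.44 (adjusted p = 4.5e-05), and SUCLA2, of the supply of succinyl-CoA, by -0.35 (adjusted p = 1.6e-05). TFRC, the transferrin receptor, did so by -0.30 (adjusted p = 7.1e-05). Unlike those of ALAS1, its responses in the NRF1-FL line (-1.14) and without a transgene (-1.15) were alike. On adjusted p, 2 of 17 transport, 2 of 15 iron-sulfur, 2 of 8 supply and 1 of 10 iron genes were lower. None was higher, and of the other lists only NRF1 passed, the siRNA target, whose counts do not separate transgene from endogenous reads. Over all tested genes 7.40% passed in either direction, and of those called 85.9% were lower.

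The shares of all tested genes beside the other lists are the same, 15.1% called lower and 13.7% called higher. Of 4 genes of heme breakdown 1 was called lower, HMOX1, the inducible heme oxygenase, at -1.03 ± 0.0884. It was also called lower in NRF1-ΔE7 cells than in NRF1-FL cells under siNRF1, at 4.71 against 7.34 CPM (-0.64 ± 0.091). Under siNT, HMOX1 was at 8.31 CPM with NRF1-ΔE7 and 11.3 CPM with NRF1-FL. By the interaction test its siRNA responses in these lines did not differ past the threshold (-0.19, adjusted p = 0.428). Of 4 heme sensors 2 were called higher, the nuclear receptor NR1D1 at 1.27 and the repressor BACH1 at 0.54. Of 10 tested iron genes 2 were called lower and 0 higher, TFRC at -1.15 and the ferritin light chain FTL at -1.14. At an adjusted p under 0.05, 8 of those 10 iron genes were lower and 0 higher, where 64.3% of all tested genes passed in either direction. The share of all tested genes that were lower on this rule is not given here.

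Of 15 iron-sulfur cluster genes 2 were called lower, NFU1 at -0.94 and ISCA1 at -0.81, and 2 higher, IBA57 at 0.66 and the scaffold ISCU at 0.54, close to the 15.1% and 13.7% of all tested genes. Of 9 heme attachment and heme protein genes of the respiratory chain, SDHC was called lower at -1.21 and MT-CYB higher at 0.66. Among 8 genes that supply glycine and succinyl-CoA, DLST at -0.99 and SUCLA2 at -0.78 were called lower and OGDH at 0.71 higher. SUCLA2, a subunit of succinyl-CoA synthetase, was also called lower in NRF1-ΔE7 cells than in NRF1-FL cells under siNRF1, at 47.9 against 75.5 CPM (-0.66 ± 0.0381, adjusted p = 4.4e-15). Of 6 regulators of ALAS1, NRF1, which is the target of the siRNA, was called lower and FOXO1 higher at 0.81. PPARGC1A, the coactivator that induces ALAS1 in fasting liver, was at 5.85 CPM under siNT and 7.45 CPM under siNRF1. Of 3 genes for the turnover and activation of ALAS1 none was called, and CLPX (-0.35) and CLPP (-0.28), subunits of the protease that degrades it, were lower at an adjusted p under 0.05.

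**Figure D4:**
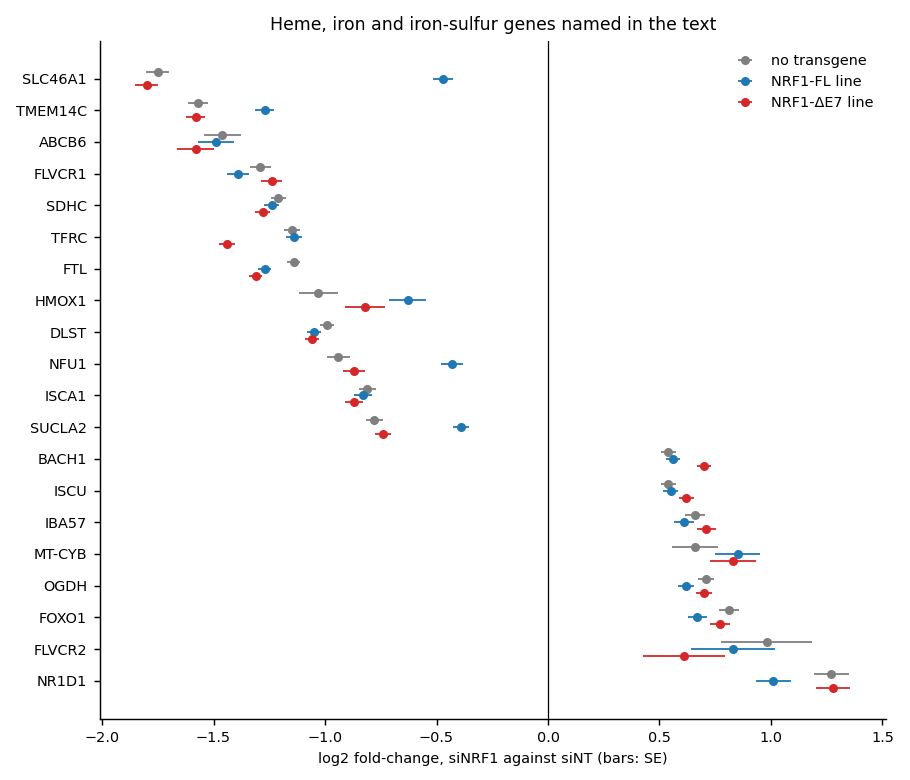
Log2 fold-change of siNRF1 against siNT (horizontal axis, bars are SE) for the heme, iron and iron-sulfur genes named in the text (rows), grey for no transgene, blue for NRF1-FL and red for NRF1-ΔE7. For SLC46A1 the values are -1.75, -0.47 and -1.80, while FLVCR1, FTL, SDHC and DLST have like values in all 3.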

How the data were processed

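Polyadenylated RNA was sequenced from 18 HEK293 Flp-In libraries with a stranded kit. Reads had been trimmed (Cutadapt 1.18) and aligned to hg38 by the authors with STAR 2.7.0f and GENCODE v30, and DESeq2 1.46.0 stands in the submitters' processing notes. The authors deposited estimated counts for each gene without normalization, and 91.9% of them are exactly whole. Which tool counted the reads, and whether by strand, is not given in these sources (labels, methods and file header). Of 36 columns, 18 matched no sample of this experiment and were not used.

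Estimated counts were rounded, genes with low counts removed by filterByExpr (minimum count 10; 17962 of 58870 kept), and libraries scaled by TMM (factors 0.944 to 1.07). edgeR 4.0.16 was run in R 4.3.3 as a robust quasi-likelihood F test, with the 18 libraries and 6 condition means in a single model (biological coefficient of variation 0.0337, residual degrees of freedom 12). The test was checked on simulated data with changes larger than the isoform differences of the enzymes. Differences of that size were not part of the check. P-values are two-sided and were adjusted by Benjamini-Hochberg across tested genes within each of 12 comparisons. The 18 replicate pairs differed beyond counting noise (chi-square over its degrees of freedom 2.01 to 7.24) and were kept as separate samples.

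Gene positions and canonical transcript lengths are from GENCODE v44 on hg38, and promoters are from RefSeq (GRCh38.p14). The enzymes and lists were chosen with earlier results of these data known. Named were the 7 enzymes, ALAS2 and NRF1, up to 5 called genes of each list with a mean of at least 1 CPM, neighbours within 1 kb of a start, and the 3 most alike genes of each enzyme. PPARGC1A, CLPX and CLPP were named after their values were seen. As alternatives, scaling by RLE or upper quartile, no filter, a filter of 10 counts in every library, replicate number as a block, DESeq2 1.42.0, fits of the compared libraries alone, and 18 fits that each left out a library were run.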

Additional observations from a re-analysis of the deposited data

Results flagged for a closer look

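The siRNA responses of some genes differed between lines by the interaction test. For ALAS1 the response was lower in the NRF1-ΔE7 than in the NRF1-FL line, with a difference of -0.35 on the log2 scale, and higher in the NRF1-FL line than without a transgene, with a difference of 0.34. These 2 values share the NRF1-FL libraries. The first combines a difference between the lines of -0.22 under siNRF1 with one of 0.13 under siNT. For CPOX the fall was larger in the NRF1-ΔE7 line than without a transgene, with a difference of -0.34. NRF1 itself responded differently in the lines, by -0.47 between the NRF1-ΔE7 and NRF1-FL lines, by 1.78 between the NRF1-FL line and no transgene and by 1.31 between the NRF1-ΔE7 line and no transgene, and the part of this in the results on ALAS1 and CPOX was not tested. For SLC46A1 the difference between the NRF1-ΔE7 and NRF1-FL lines was -1.34, for NFU1 -0.44, for SUCLA2 -0.35, for TMEM14C -0.31 and for TFRC -0.30. Groups of 3 libraries were not tested for outlying values.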

How the results depend on the processing

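No result on the 7 enzymes reversed, which means a change of direction with an adjusted p under 0.05 in either fit. Values that did not pass could change sign. FECH, compared between the isoforms under siNRF1, ran from -0.02 to 0.02 over all alternatives. Of 588 values recomputed under another scaling, filter, tool, fit or block, 586 kept their call (for interactions, their side of adjusted p). The 2 that did not were the UROD falls under upper-quartile scaling. On adjusted p alone, 13 of the 588 changed side, 6 by losing and 7 by gaining significance, and 29 of 1512 did with libraries left out singly. Upper-quartile scaling moved the median log2 fold-change of all genes with siNRF1 from 0.008 to 0.094 without a transgene, and the share of called genes that were lower from 52.6% to 42.2%. In the NRF1-FL line that share went from 51.5% to 40.4% and in the NRF1-ΔE7 line from 51.2% to 40.4%. DESeq2 called 268 genes for NRF1-ΔE7 against no transgene under siNRF1, where edgeR called 428, and 152 for NRF1-FL against no transgene under siNT, where edgeR called 230. With libraries left out singly, the number of enzymes called higher with siNRF1 in the NRF1-ΔE7 line ran from 0 to 1. The number with an adjusted p under 0.05 ran from 1 to 2 for the response in the NRF1-ΔE7 against the NRF1-FL line and from 0 to 1 for the NRF1-ΔE7 line against no transgene, CPOX being the enzyme that changed in both. The ALAS1 interactions ran from -0.38 to -0.32 and from 0.31 to 0.37 over all alternatives. For the named genes of the lists, 1563 of 1575 recomputed values kept their call or side of adjusted p, 12 gained a call or significance and 0 reversed in the same sense. The cause of these changes was not tested.

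Replicate numbers were not used to pair the samples in the main model. Over 45 pairs with the same number the correlation of deviations ran from -0.227 to 0.246, with 17 above 0.1. Of 18 libraries, 13 correlated best with their own number, which is a hint of pairing from the data and not from the design. With the replicate block all 84 values for the enzymes kept their call and their side of adjusted p, and genes with an adjusted p under 0.05 for the response in the NRF1-ΔE7 line against no transgene went from 419 to 642. Without a filter that number was 641, and with DESeq2 634. Depth limited PPOX most, with 294 counts in its lowest library.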
